A study of Saccharomyces cerevisiae with 13 samples.

Results

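The genes described here are 10 genes of budding yeast that take up sulfate into organic sulfur and make methionine and S-adenosylmethionine. They were chosen by systematic name as enzymes of the pathway, with no threshold on a measured value but with earlier results of these data known, and all 10 were found among the 5694 genes listed in the tables of reads per gene. The study sequenced mRNA fragments (mRNA-seq), the footprints of single ribosomes (monosome-seq) and the footprints of pairs of stacked ribosomes (disome-seq). Cells were grown at 30 °C either in the rich medium YPD, with the strain labelled BY4742 (MATα his3Δ1 leu2Δ0 lys2Δ0 ura3Δ0), or in synthetic complete medium lacking histidine with 100 mM 3-AT, with the strain labelled S288C, and counts of marker genes given below go against both strain labels. 3-AT (aminotriazole) inhibits histidine biosynthesis. Each assay had 2 biological replicates per medium, and 1 further rich-medium library labelled BY4742 held footprints from transcripts bound by 2 ribosomes and served as the control. The cultures with and without 3-AT also differ in labelled strain and in medium, and the effects of these cannot be told apart in any difference between the media below. In bulk samples, fewer transcripts per cell and fewer cells that express a gene cannot be told apart either.

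In this pathway sulfate is first activated with ATP, then reduced in steps to sulfide, and the sulfide is joined to a carbon chain to give homocysteine. Homocysteine is methylated to methionine, from which S-adenosylmethionine, the main methyl donor of the cell, is made. Yeast is known to express these genes strongly when methionine and cysteine are scarce, through the activator Met4 with the DNA-binding proteins Cbf1, Met31 and Met32, and the general amino acid activator Gcn4 also reaches several of them.

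All 10 genes have 1 coding exon in the R64 annotation of RefSeq, and coordinates are those of the coding sequence. Of the sulfate activating and reducing enzymes, MET3 (YJR010W, chrX:456239-457774, + strand) encodes ATP sulfurylase, MET14 (YKL001C, chrXI:438777-439385, - strand) APS kinase and MET16 (YPR167C, chrXVI:876847-877632, - strand) PAPS reductase. MET5 (YJR137C, chrX:678957-683285, - strand) and MET10 (YFR030W, chrVI:213312-216419, + strand) encode the subunits of sulfite reductase. MET17 (YLR303W, chrXII:732542-733876, + strand) encodes the enzyme that joins sulfide to O-acetylhomoserine, and CYS3 (YAL012W, chrI:130799-131983, + strand) encodes cystathionine gamma-lyase, which makes cysteine in the transsulfuration route. MET6 (YER091C, chrV:339864-342167, - strand) encodes methionine synthase. SAM1 (YLR180W, chrXII:515262-516410, + strand) and SAM2 (YDR502C, chrIV:1453310-1454464, - strand) encode the S-adenosylmethionine synthetases, and are 82.8% identical in coding sequence and 91.7% in protein sequence. Per the methods, reads with more than 1 alignment were discarded upstream. Of the 28-nt stretches of either SAM gene, 94.3% are unique among coding sequences, against 100.0% for the other 8 genes. Of 58-nt stretches, a length of disome footprints, 99.6% are unique in either SAM gene. Reads from the stretches they share cannot be assigned to either gene.

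The upstream sequences were searched for core letters of the sites of these regulators. The motifs were chosen, like the genes, with earlier results of these data known. The palindrome CACGTG, the core letters of the Cbf1 site, was found from 250 nt before to 50 nt after the start of the coding sequence in 4 of the 10 genes (CYS3, MET10, MET14 and MET16), against 2.9% of 6007 windows of all genes. In a wider window of 500 nt before the start codon, chosen after seeing the data, it was found in 9 of the 10 genes, all but SAM1, against 6.2% of 6006 windows. For 8 of these 9 genes, the match nearest to the start codon is printed 5′ to 3′ on the strand of the gene, with 12 nt on either side and the motif in capitals:
MET3, chrX:455867-455896: gaccagaaaagtCACGTGtaattttgtaac
MET14, chrXI:439596-439625: tgccactaatttCACGTGatcaatatattt
MET16, chrXVI:877793-877822: ttatcatcatttCACGTGgctagtaaaaga
MET5, chrX:683572-683601: aatgaatttcatCACGTGcgtattatctct
MET10, chrVI:213069-213098: agcttatagaagCACGTGaccacaattcac
MET17, chrXII:732230-732259: aatggcaaatggCACGTGaagctgtcgata
CYS3, chrI:130571-130600: taattagccattCACGTGatctcagccagt
SAM2, chrIV:1454770-1454799: aatatttctaccCACGTGactataattgag
The match of MET6 lies 495 nt before its start codon, the farthest of the set, and that of MET16 lies 178 nt before it, the nearest. CTGTGG, core letters of the Met31 and Met32 site, was found on either strand in 1 of the 10 genes in the narrower window (MET10) and in 6 in the wider one (MET3, MET6, MET10, MET17, SAM1 and SAM2), against 6.8% and 13.2% of all windows. TGACTC, core letters of the Gcn4 site, was found in CYS3, MET5 and MET16 in the narrower window and in MET5, MET6 and MET16 in the wider one, against 8.0% and 12.7%. The CYS3 match overlaps its start codon, so it falls outside the wider window. A match describes these letters and was not tested as a binding site.

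The mRNA-seq libraries totalled 544499 to 2836320 reads, the monosome-seq libraries 230583 to 800994 and the disome-seq libraries 18790 to 47391, and the control held 401686 footprints, so disome-seq carries the largest counting error. Of the loci that the BY4742 genotype lists as deleted, LEU2 and LYS2 had 0 counts in all 12 replicated libraries, those labelled S288C included, whereas URA3 was counted in both media, with 138 and 181 reads in rich-medium mRNA-seq. LEU2 and LYS2 at 0 go against the label S288C, a strain without these deletions, and URA3 reads go against the label BY4742. HIS3 had 149 and 240 reads in rich-medium mRNA-seq and 49 footprints in the control. Since his3Δ1 leaves part of the gene in place, these totals do not check the label. The positions of the control footprints within HIS3 were not examined. The library labelled as the BY4742 control had 62 footprints of LYS2 and 0 of URA3. A further set of genes was looked at after these counts had been seen. The control had 0 footprints of the alpha-factor gene MF(ALPHA)1, 1 of STE3, which encodes the a-factor receptor of alpha cells, and 73 of the a-factor gene MFA2, while the rich-medium monosome libraries had 1648 and 1189 of MF(ALPHA)1, 448 and 358 of STE3, and 0 of MFA2. The control thus goes against its label in these genes, and it is called the library labelled as control below. It enters no test.

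MET17 was the 1 member with no reads in this library. It had 0 footprints there, whereas its level, as reads scaled to a total of 1e6 (RPM), was 642 and 562 RPM in the rich-medium monosome libraries, from 514 and 341 footprints. A count of 0 allows up to 3 footprints, or 7.47 RPM, so the level of MET17 was at least 80.6-fold lower there. Of the 281 genes with at least the monosome level of MET17, 3 were at 0 in that library, namely MET17, MF(ALPHA)1 and SAG1, the alpha-agglutinin gene. As background, the sister laboratory strain BY4741 carries a deletion of MET17, is of mating type a and keeps LYS2. Which strain gave the library was not tested. MET17 was counted in every one of the 12 replicated libraries.

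The other members were present in the library labelled as control. CYS3 had 369 footprints (919 RPM) and MET6 had 331 (824 RPM), close to their rich-medium monosome means of 1053 and 991 RPM. SAM1 had 137 (341 RPM) and SAM2 had 53 (132 RPM), 0.44 and 0.37 of their monosome RPM. MET5 had 12, MET3 9, MET16 6, MET10 5 and MET14 1 footprint. The ratio of RPM in this library to rich-medium monosome RPM had a median of 0.82 over 2469 genes with at least 10 footprints in each. Its quartiles were 0.45 and 1.54, and CYS3 and MET6 lay near the median. SAM1, at 0.44, lay at the lower quartile. SAM2, at 0.37, and MET5, at 0.28 from 12 footprints, had lower values. Whether SAM1, SAM2 or MET5 lay below that quartile beyond counting error was not tested. This library also differed from monosome-seq in the read lengths counted and in the transcripts taken, and its marker genes went against its label. What these differences do to the ratio was not tested. The other 4 genes present had under 10 footprints. The 10 genes held 0.230% of its footprints (95% Wilson interval 0.215% to 0.245%), against 0.337% and 0.342% of the rich-medium monosome libraries when MET17 is left out.

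**Figure D1:**
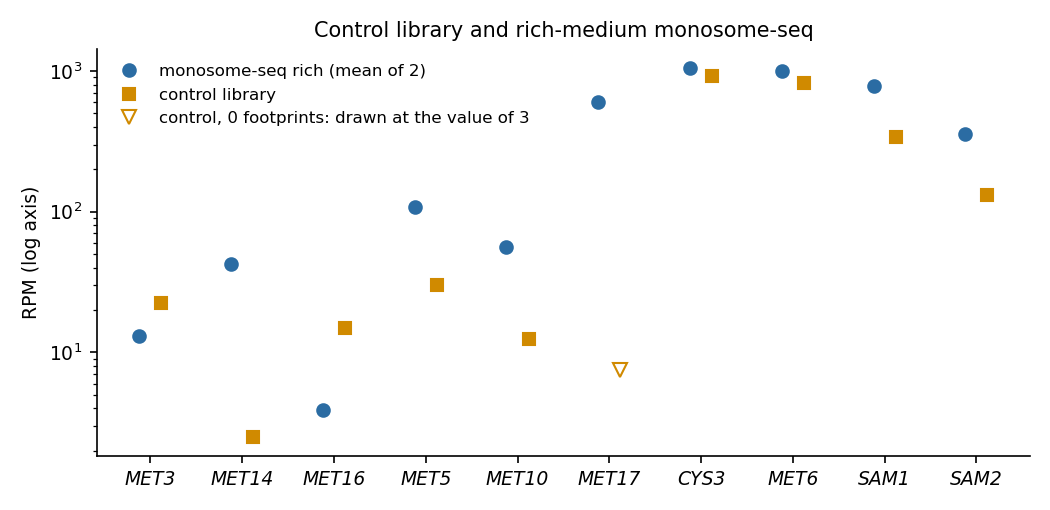
Level of each of the 10 genes in RPM (log axis) in rich-medium monosome-seq (circles, mean of 2 libraries) and in the library labelled as control (squares, 1 library). MET17 had 601.8 RPM in monosome-seq and 0 footprints in the control, drawn as an open triangle at the 7.47 RPM that 3 footprints would give.

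That library was deposited by position of the ribosomal A-site, so it also shows where footprints fell within the genes. Codons are counted from 1 at the start codon. In CYS3, 72 of the 369 footprints (19.5%, 95% Wilson interval 15.8% to 23.9%) had the isoleucine codon 238 in the A-site. In MET6 the most counted position was the lysine codon 136, with 33 of 331 footprints (10.0%, 7.19% to 13.7%). In SAM1 it was the proline codon 360, with 18 of 137 footprints (13.1%, 8.48% to 19.8%), and in SAM2 the proline codon 362, with 7 of 53 (13.2%, 6.55% to 24.8%). The positions in SAM1 and SAM2 are the same residue in the protein alignment, and the 28 nt a footprint there would cover differ by 2 bases. These windows, with the A-site codon in capitals, are:
CYS3, chrI:131498-131524, + strand: gccattggtgctATCccatctcctttc
MET6, chrV:341748-341774, - strand: ccaactttctccAAGaccactcaattt
SAM1, chrXII:516327-516353, + strand: ccaatctacttgCCAaccgcttcttat
SAM2, chrIV:1453367-1453393, - strand: ccaatttacttaCCAaccgcttcttat
By the methods, PCR duplicates with the same UMI were counted once, though whether this holds for the deposited counts is not stated. The intervals cover counting error only. Each position was picked as the most counted of its gene in these same footprints, which raises its share, and the intervals leave this out.

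The 10 genes took a larger share of the mRNA in 3-AT than in the rich medium. They held 0.270% and 0.271% of the rich-medium mRNA-seq reads and 0.445% and 0.433% of those in 3-AT. In monosome-seq the shares were 0.402% and 0.398% in the rich medium and 0.449% and 0.438% in 3-AT. The libraries of the media did not overlap in either assay. A share is a count over the library total, and with library totals the median gene was also higher in 3-AT. Its log2 difference was 0.33 in mRNA-seq and 0.32 in monosome-seq, so a higher share alone does not set these genes apart. Whether the share of the 10 genes rose beyond that of the median gene was not tested. In disome-seq the shares were 0.367% and 0.458% in the rich medium and 0.407% and 0.495% in 3-AT, and these overlapped. Within the pathway, genes changed in opposite directions.

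Levels are given as CPM, counts scaled to a library total of 1e6 with TMM factors (which centre the libraries on the typical gene), divided by coding length, in CPM per 1000 nt, for replicates 1 and 2 in that order. In rich-medium mRNA-seq the most abundant transcripts were those of SAM1 (646 ± 34.4, SD, n = 2) and CYS3 (609 ± 28.8), whose replicates overlapped, followed by MET17 (367 ± 27.4), SAM2 (301 ± 15.2), MET6 (154 ± 7.27) and MET14 (121 ± 7.05). MET10 (33.8 ± 0.0257), MET5 (30.3 ± 2.72), MET3 (25.3 ± 1.92) and MET16 (22.6 ± 0.832) were lower by a wide gap, and adjacent genes in this part of the order differed by little more than their spread. In 3-AT the order became MET17 (762 ± 23.1), SAM1 (357 ± 3.91), MET16 (336 ± 1.81), MET6 (330 ± 13.6), CYS3 (242 ± 3.06), MET10 (209 ± 0.23), MET14 (170 ± 14.7), SAM2 (102 ± 4.09), MET5 (55.04 ± 2.74) and MET3 (52.9 ± 2.33), the last pair with overlapping replicates. MET16 thus moved from the last place to the third, where its level did not differ from that of MET6 beyond their spread.

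**Figure D2:**
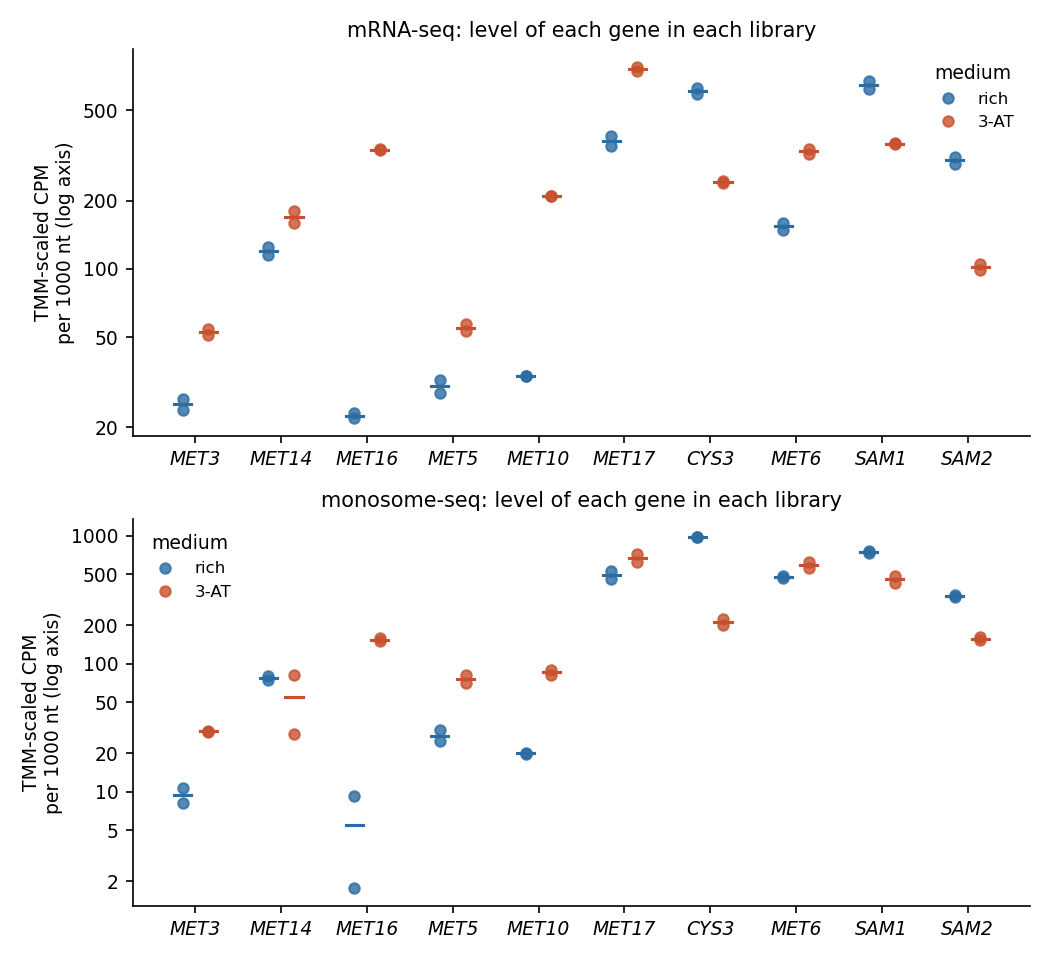
Level of each gene in every library of mRNA-seq (top) and monosome-seq (bottom), in TMM-scaled CPM per 1000 nt of coding sequence on a log axis, for the rich medium (blue) and 3-AT (orange). Points are the 2 replicates and bars their mean. The mRNA points of MET16 go from about 22.6 to 336 and those of CYS3 from 609 to 242, and the monosome points of MET14 overlap between the media. How many of all genes have overlapping media was not counted.

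The genes of sulfate activation and reduction were higher in mRNA-seq of 3-AT than of the rich medium, while CYS3 and both SAM genes were lower. Of the 10 genes, 7 rose and 3 fell with an adjusted p under 0.05 (edgeR quasi-likelihood test, Benjamini-Hochberg adjustment over all 5290 genes tested). This has to be read against a background in which 75.4% of the tested genes were called, 37.7% higher and 37.7% lower. With library totals in place of TMM, 63.7% of the called genes were higher, against 50.0% with TMM, and the median over all genes moved to 0.33. With TMM the median log2 difference of the 10 genes was 0.97, against 0.01 over all genes tested. Where the libraries of the media are said below not to overlap, the share of all genes for which this holds was not counted.

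MET16 changed most. Its mRNA level was 22.0 and 23.1 CPM per 1000 nt in the rich medium and 337 and 334 in 3-AT, from 35 and 46 against 249 and 160 reads. The media were far apart compared with the replicates, and the log2 difference was 3.89 ± 0.15 (SE), a 14.8-fold rise (adjusted p = 1.6e-51). MET10, the alpha subunit of sulfite reductase, had 33.8 and 33.8 in the rich medium and 209 and 209 in 3-AT, a log2 difference of 2.63 ± 0.09 (adjusted p = 1.3e-57). MET5, the other subunit, had 32.2 and 28.4 against 57.0 and 53.1, a log2 difference of 0.87 ± 0.11 (adjusted p = 5.2e-12). The subunits of the same enzyme thus both rose, MET10 by 6.17-fold and MET5 by 1.83-fold, from rich-medium levels between 28.4 and 33.8 CPM per 1000 nt. The difference between these folds was not tested.

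MET3, at the entry of the pathway, had 26.7 and 23.9 CPM per 1000 nt in the rich medium and 51.2 and 54.5 in 3-AT, a log2 difference of 1.06 ± 0.18 (adjusted p = 6.8e-08). MET14, the next enzyme, had 125 and 116 against 180 and 159, a log2 difference of 0.51 ± 0.15 (adjusted p = 0.0012). The media did not overlap for either gene. The call of MET14 was lost with DESeq2 (adjusted p = 0.064), with all 12 libraries in 1 fit (0.064) and without 3-AT replicate 1 (0.086). MET17 had 386 and 348 in the rich medium and 778 and 745 in 3-AT, and MET6, the methionine synthase, 159 and 149 against 339 and 320. Both about doubled, with log2 differences of 1.06 ± 0.07 (adjusted p = 5.7e-29) and 1.11 ± 0.08 (adjusted p = 4.5e-28).

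CYS3, SAM1 and SAM2 moved the other way. The CYS3 mRNA level was 589 and 629 CPM per 1000 nt in the rich medium and 240 and 244 in 3-AT, a log2 difference of -1.34 ± 0.08 (adjusted p = 3.0e-31). SAM2 had 290 and 312 against 99.4 and 105, a log2 difference of -1.57 ± 0.11 (adjusted p = 3.5e-27), and SAM1 had 622 and 671 against 360 and 354, a log2 difference of -0.86 ± 0.08 (adjusted p = 3.2e-19). These are falls of 2.52-fold, 2.96-fold and 1.81-fold, and the media did not overlap. The enzymes that use methionine and the enzyme that makes cysteine from cystathionine were therefore lower in the same libraries in which the sulfate reducing enzymes were higher.

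The other genes of the pathway, a list of 29 transporters, enzymes and regulators, also moved in both directions. Of the 28 tested in mRNA-seq, 18 rose, 8 fell and 2 did not pass, with a median log2 difference of 0.73, where 75.4% of all genes tested were called, 37.7% in each direction. STR3, which encodes cystathionine beta-lyase, rose by 5.40 on the log2 scale, the largest rise of the list, and STR2, cystathionine gamma-synthase, rose by 2.86. The sulfate permease gene SUL2 rose by 2.95, and MUP3, a low affinity methionine permease, by 1.97. SUL1, the other sulfate permease, had too few reads to be tested.

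Among the enzymes, MET1 (2.46), which makes the siroheme cofactor of sulfite reductase, MET22 (1.51), PAP phosphatase, and MET2 (2.18), homoserine acetyltransferase, rose on the log2 scale. So did MET13 (2.02) and MET12 (0.76), the methylenetetrahydrofolate reductases, MET7 (0.70), folylpolyglutamate synthetase, GSH1 (0.50), gamma-glutamylcysteine synthetase, and ADI1 (1.24) of the methionine salvage route. Of the regulators, MET28 (3.39), MET32 (2.39), MET4 (1.59), MET30 (0.77) and CBF1 (0.48) rose. The rise of MET32 was 1.80 without mRNA-seq rich replicate 1 and 3.71 without replicate 2. MET31 (0.03, adjusted p = 0.92) and MET8 (0.14, adjusted p = 0.62) did not pass. SAM3 (0.35), an S-adenosylmethionine permease, also rose, a call lost with DESeq2 (adjusted p = 0.065) and with all 12 libraries in 1 fit (0.21), and that of CBF1 was lost with all 12 libraries (0.072).

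The 8 genes that fell were MMP1 (-2.39), an S-methylmethionine permease, SAH1 (-2.08), S-adenosylhomocysteine hydrolase, CYS4 (-1.88), cystathionine beta-synthase, MHT1 (-1.44) and SAM4 (-0.31), homocysteine methyltransferases, MUP1 (-1.15), the high affinity methionine permease, MEU1 (-1.07) of methionine salvage, and GSH2 (-0.87), glutathione synthetase. These are log2 differences of mRNA. SAM4 was the least sure, with 0.01 under library totals and an adjusted p of 0.061 with DESeq2. CYS3 and CYS4, the enzymes that lead from homocysteine to cysteine, both fell, while STR2 and STR3, which run from cysteine to homocysteine, both rose.

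In monosome-seq the footprints of 9 of the 10 genes changed between the media, 6 up and 3 down, and MET14 was not called. Of the 4169 genes tested, 65.6% were called, 33.8% higher and 31.7% lower. With library totals 62.2% of the called genes were higher and with all 12 libraries in 1 fit 34.8%, against 51.6% in the fit used here. The median log2 difference was 0.37 over the 10 genes and 0.03 over all genes tested.

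MET16 had 1.76 and 9.24 CPM per 1000 nt in the rich medium, from 1 and 4 footprints, and 159 and 151 in 3-AT, from 36 and 31. The log2 difference was 4.86 ± 0.46 (adjusted p = 7.4e-11), and 3.96 without rich-medium replicate 1 or 6.14 without replicate 2, so its size is uncertain. MET10 had 20.1 and 19.9 against 89.2 and 82.4, a 4.29-fold rise (log2 SE 0.21, adjusted p = 1.3e-10), and MET5 had 30.1 and 24.7 against 71.2 and 82.1, a log2 difference of 1.46 ± 0.18 (adjusted p = 1.1e-08). MET3 rose from 9 footprints in each rich-medium library to 13 and 12 in 3-AT, where the totals are smaller, a log2 difference of 1.66 ± 0.44 (adjusted p = 0.0014). The call of MET3 was lost with DESeq2 (adjusted p = 0.065) and without rich-medium replicate 1 (0.07).

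MET17 and MET6, which about doubled in mRNA, differed much less in footprints. MET17 had 533 and 464 CPM per 1000 nt in the rich medium and 719 and 621 in 3-AT, a log2 difference of 0.42 ± 0.12 (adjusted p = 0.0026), and MET6 had 468 and 483 against 620 and 564, a log2 difference of 0.32 ± 0.11 (adjusted p = 0.0097). Neither gene overlapped between the media. Both calls were lost with DESeq2 (adjusted p = 0.11 and 0.19) and without either rich-medium replicate or 3-AT replicate 1, and with all 12 libraries in 1 fit the log2 differences were -0.05 and -0.16, beside a median of -0.41 over all genes in that fit. MET14 had 75.1 and 80.5 in the rich medium and 28.4 and 81.6 in 3-AT, so the media overlapped, with a log2 difference of -0.52 ± 0.41 (adjusted p = 0.26). It was -1.42 (adjusted p = 0.038) without 3-AT replicate 2, 0.04 without 3-AT replicate 1, and called lower with all 12 libraries (adjusted p = 0.025).

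CYS3 fell further in footprints than in mRNA, from 981 and 985 CPM per 1000 nt to 222 and 200, a log2 difference of -2.21 ± 0.13 (adjusted p = 1.7e-15). SAM2 fell from 331 and 346 to 162 and 152, a log2 difference of -1.10 ± 0.16 (adjusted p = 4.5e-07), and SAM1 from 756 and 736 to 486 and 429, a log2 difference of -0.70 ± 0.12 (adjusted p = 8.1e-06). In the other 29 pathway genes, 17 of 26 tested rose and 6 fell, where 33.8% of all genes tested rose and 31.7% fell. The smallest adjusted p were those of STR3 (log2 difference 5.70), SUL2 (5.22), MET22 (1.85) and MET1 (4.53).

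**Figure D3:**
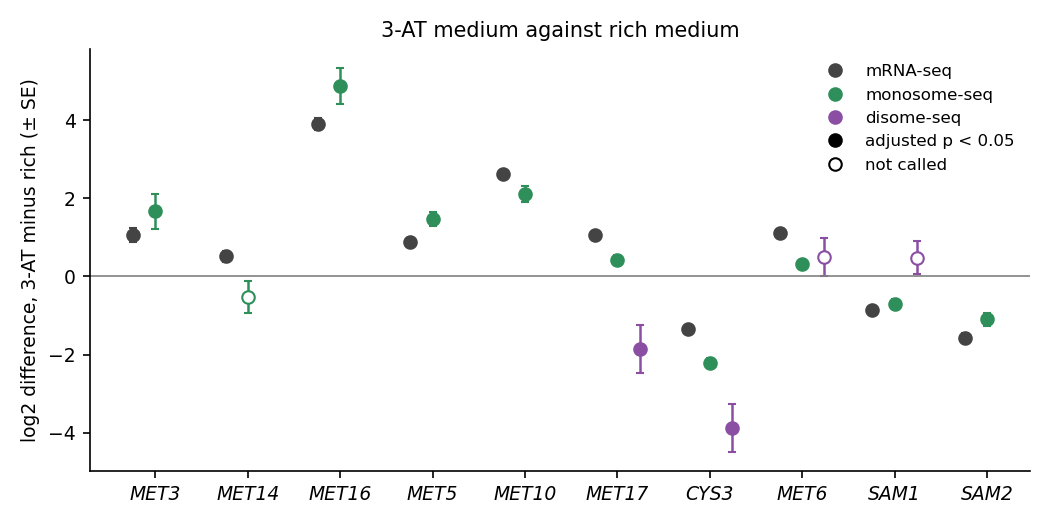
Log2 difference between 3-AT and the rich medium (± SE) of each gene in mRNA-seq, monosome-seq and disome-seq, in pathway order from sulfate activation to S-adenosylmethionine synthesis. Filled points passed an adjusted p of 0.05. MET16 is highest in mRNA (3.89) and monosome footprints (4.86), and CYS3 is lowest in monosome footprints (-2.21) and disome footprints (-3.87), while 6 genes had too few disome footprints to be tested.

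The ratio of monosome footprints to mRNA reads, a measure of how many ribosomes a transcript carries, was then compared within each medium. In the rich medium 8 of the 10 genes differed from a log2 ratio of 0 under TMM scaling, 6 above and 2 below, against 51.7% of all 5099 genes called. Of the called genes 50.2% were above 0, whereas with library totals 427 of 3562 were. MET6 stood highest with a log2 ratio of 2.22 ± 0.09 (adjusted p = 5.8e-141), followed by CYS3 (1.29 ± 0.08, adjusted p = 5.9e-54), MET17 (1.05 ± 0.09, 1.2e-30), SAM1 (0.80 ± 0.08, 1.9e-20), SAM2 (0.76 ± 0.10, 2.9e-13) and MET5 (0.47 ± 0.15, 0.0041). MET16 (-1.57 ± 0.59, 0.017) and MET3 (-0.85 ± 0.34, 0.027) were below, and MET10 (-0.16 ± 0.18, 0.47) and MET14 (-0.04 ± 0.21, 0.90) were not called. The ratio is relative to the scaling, and with library totals alone the median over all genes moved from -0.06 to -0.64, MET5 was at -0.11 and SAM2 at 0.18, not called, and MET10 (-0.74) and MET14 (-0.62) were called below. The calls of MET3, MET5 and MET16 were lost with DESeq2 (adjusted p = 0.23, 0.08 and 0.20) and without monosome-seq rich replicate 1 (0.27, 0.25 and 0.46, with MET16 at -0.69, against -3.04 without replicate 2), those of MET3 (0.093) and MET16 (0.072) also without mRNA-seq rich replicate 1, and those of MET5 (0.051) and MET16 (0.10) without replicate 2.

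In 3-AT 8 of the 10 genes were called, 5 above and 3 below, against 51.4% of 4694 genes. Of the called genes 49.1% were above 0, 24.2% with library totals and 36.3% with all 12 libraries in 1 fit. MET6 was again highest (1.28 ± 0.10, adjusted p = 4.9e-09), then SAM2 (1.07 ± 0.18, 1.2e-04), MET5 (0.91 ± 0.14, 3.7e-05), SAM1 (0.80 ± 0.12, 2.2e-05) and MET17 (0.26 ± 0.10, 0.044). MET14 (-1.23 ± 0.35, 0.0072), MET10 (-0.84 ± 0.13, 2.9e-05) and MET16 (-0.68 ± 0.17, 0.0036) were below, and CYS3 (0.25 ± 0.14, 0.15) and MET3 (-0.39 ± 0.29, 0.28) were not called. The call of MET17 was lost with DESeq2 (0.22), with all 12 libraries (0.78), with the replicate number as a block (0.074), and without mRNA-seq 3-AT replicate 1 (0.26) or 2 (0.37) or monosome-seq 3-AT replicate 1 (0.32). With library totals its log2 ratio was -0.20, that of CYS3 -0.21 and that of MET3 -0.84 (adjusted p = 0.017), beside a median of -0.54 over all genes. The calls of MET14 and MET16 were lost with DESeq2 (0.11 and 0.13), and that of MET14 without monosome-seq 3-AT replicate 1 (-0.63, 0.19), against -2.09 without replicate 2. Of the other pathway genes, 8 were above and 4 below among 26 tested in the rich medium, and 12 above and 3 below among 25 in 3-AT. SAH1 and CYS4 had the smallest adjusted p of these in both media, with log2 ratios of 1.30 and 0.77 in the rich medium and 2.12 and 1.36 in 3-AT.

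**Figure D4:**
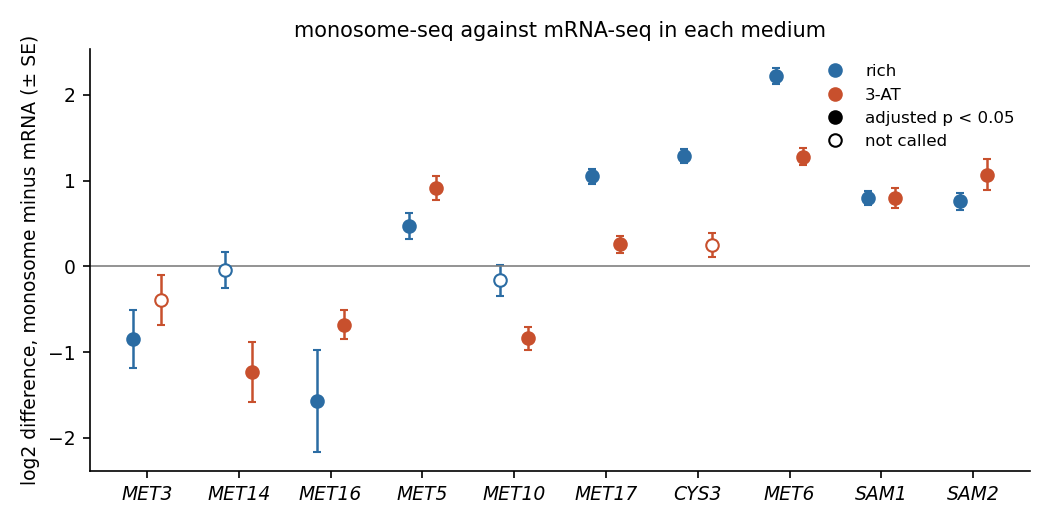
Log2 ratio of monosome footprints to mRNA reads (± SE) of each gene in the rich medium (blue) and 3-AT (orange), relative to TMM scaling, with filled points for an adjusted p under 0.05. CYS3 goes from 1.29 to 0.25, MET6 from 2.22 to 1.28 and MET17 from 1.05 to 0.26, whereas SAM1 is at 0.80 in both media.

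Whether this ratio differed between the media was tested as the interaction of assay and medium over the 8 libraries. It fell in 4 of the 10 genes and rose in 1, against 28.9% of 5160 genes called, 12.1% lower and 16.9% higher. With all 12 libraries in 1 fit 37.1% of the called genes were higher, against 58.3% in the fit used here. The median change was -0.23 over the 10 genes and 0.08 over all genes. The ratio fell for CYS3 by 0.92 ± 0.18 on the log2 scale (adjusted p = 3.7e-06), for MET6 by 0.82 ± 0.13 (adjusted p = 3.8e-08) and for MET17 by 0.67 ± 0.14 (adjusted p = 2.4e-05). These 3 calls held in every alternative that was run. CYS3 lost mRNA and footprints per mRNA alike, while in MET6 and MET17 the footprints per mRNA fell as the mRNA rose.

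MET14 also fell, with a change of -1.08 ± 0.41 (adjusted p = 0.033), from 33 and 27 footprints in the rich medium and 5 and 13 in 3-AT. MET5 rose, with a change of 0.55 ± 0.21 (adjusted p = 0.032). Both rest on single settings or libraries, as the adjusted p of MET14 was 0.092 with DESeq2, 0.079 without mRNA-seq 3-AT replicate 1, 0.07 without monosome-seq rich replicate 1 and 0.48 without monosome-seq 3-AT replicate 1, while the change was -1.96 without monosome-seq 3-AT replicate 2. That of MET5 was 0.06 with DESeq2 size factors, 0.17 with DESeq2, 0.35 with all 12 libraries and 0.11 to 0.33 in 5 of the 8 fits that left out a library: mRNA-seq rich replicate 1 (0.11), mRNA-seq 3-AT replicates 1 (0.11) and 2 (0.17), monosome-seq rich replicate 2 (0.33) and monosome-seq 3-AT replicate 2 (0.13). MET10 missed the threshold (-0.56 ± 0.24, adjusted p = 0.061), as did SAM2 (0.42 ± 0.22, 0.14), MET3 (0.58 ± 0.49, 0.41), MET16 (1.00 ± 0.63, 0.24) and SAM1 (0.11 ± 0.15, 0.64). MET10 passed with DESeq2 size factors (0.036), with all 12 libraries (0.0099), and without mRNA-seq rich replicate 2 (0.044) or mRNA-seq 3-AT replicate 1 (0.049) or 2 (0.043). Of the other pathway genes, 8 rose and 0 fell among 27 tested, led by SAH1 (0.94), MET1 (2.06), MUP3 (2.72) and CYS4 (0.70) on the log2 scale. Over all genes tested 28.9% were called, 16.9% higher and 12.1% lower, so the share called is near this background.

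Disome footprints of the 10 genes were few, so counts are given. In the rich medium CYS3 had 69 and 53, SAM1 36 and 32, MET6 27 and 27, MET17 23 and 26, and SAM2 12 and 11. MET5 had 6 and 3, MET10 0 and 6, MET3 1 and 1, and MET14 and MET16 0. In 3-AT SAM1 had 47 and 25, MET6 18 and 38, MET10 11 and 2, MET17 2 and 8, MET5 3 and 5, CYS3 1 and 5, MET16 3 and 4, MET3 0 and 4, MET14 0 and 2, and SAM2 1 and 0. CYS3 thus had the highest counts in the rich medium and 1 and 5 footprints in 3-AT. Per length, its 3-AT level of 108 ± 108 CPM per 1000 nt (SD, n = 2) was below those of SAM1, MET6, MET16 and MET17, with widely spread replicates. The 0 footprints of MET14 and MET16 over both rich-medium libraries allow up to 36.5 RPM, while their monosome levels there were 42.6 and 3.55 RPM, so for MET16 disomes at its monosome level were not detectable at this depth.

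**Figure D5:**
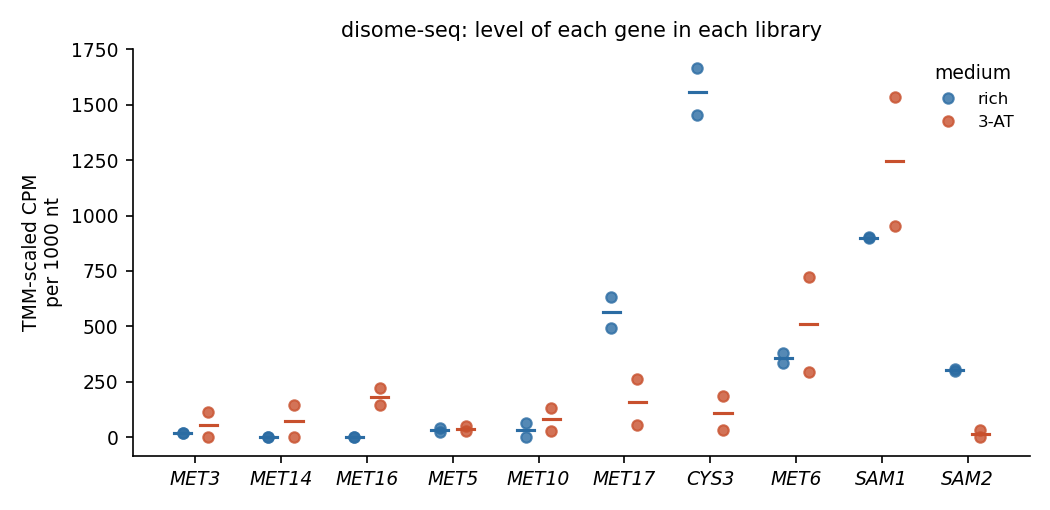
Level of disome footprints of each gene in every library, in TMM-scaled CPM per 1000 nt, for the rich medium (blue) and 3-AT (orange), with points for the 2 replicates and bars for their mean. CYS3 falls from 1667 and 1452 to 31.7 and 185, and MET17 from 493 and 632 to 56.3 and 263, while the 3-AT replicates of SAM1 and MET6 lie far apart.

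Between the media, 4 of the 10 genes had enough disome footprints to be tested. CYS3 and MET17 fell and MET6 and SAM1 were not called, against 80.1% of the 624 tested genes called, 43.1% lower and 37.0% higher. The share that fell is near this background. CYS3 had 1667 and 1452 CPM per 1000 nt in the rich medium and 31.7 and 185 in 3-AT, a log2 difference of -3.87 ± 0.61 (adjusted p = 1.1e-05) where the median of all tested genes was -0.14. It was -2.72 without disome-seq 3-AT replicate 1 and -5.07 without replicate 2. MET17 had 493 and 632 against 56.3 and 263, a log2 difference of -1.85 ± 0.61 (adjusted p = 0.0094), a call lost with library totals (0.071), with DESeq2 (0.057) and without disome-seq 3-AT replicate 1 (-0.76, adjusted p = 0.33), and -2.84 without replicate 2. MET6 (0.49 ± 0.48, adjusted p = 0.35) overlapped between the media and SAM1 (0.48 ± 0.42, 0.30) did not. With library totals both passed (0.035 and 0.018), beside a median of 0.47 over all genes, as did MET6 without disome-seq 3-AT replicate 1 (0.012) and SAM1 without replicate 2 (0.02). Of the other pathway genes 4 could be tested, of which MET22 (3.48) and MET7 (3.13) rose and SAH1 (-2.23) fell on the log2 scale.

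Disome footprints were then set against monosome footprints of the same medium. Of the called genes in the rich medium 48.9% were above 0, 30.4% with library totals and 16.0% with all 12 libraries in 1 fit. In the rich medium 8 of the 10 genes were tested and CYS3 alone was called, against 18.5% of 3089 genes, with a log2 ratio of 0.76 ± 0.20 (adjusted p = 0.0013) where the median of all genes was -0.37. That call was lost with library totals (0.054), without a filter (0.05), with all 12 libraries in 1 fit (0.53), and without monosome-seq rich replicate 1 (0.26) or 2 (0.23) or disome-seq rich replicate 1 (0.098). The log2 ratios of MET6 (-0.32 ± 0.23), SAM1 (0.36 ± 0.21), SAM2 (-0.07 ± 0.33), MET17 (0.25 ± 0.24), MET5 (0.28 ± 0.58) and MET10 (0.64 ± 0.74) had adjusted p from 0.24 to 0.92. MET6 passed with all 12 libraries (-0.91), beside a median of -1.09 over all genes, and with library totals (-0.58). MET14, with 0 disome footprints, was not called (adjusted p = 0.11). Of 14 other pathway genes tested, CBF1 (1.60) was above and SAM4 (-1.83) below.

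In 3-AT the S-adenosylmethionine synthetase genes lay on opposite sides in the fit used here, SAM2 with 1 and 0 disome footprints. SAM1 was above the monosome level, with a log2 ratio of 1.48 ± 0.29 (adjusted p = 4.4e-04), while MET17 (-2.12 ± 0.45, adjusted p = 0.001) and SAM2 (-3.10 ± 1.07, 0.031) were below. These are 3 of 8 members tested, against 31.6% of 2275 genes called, with a median of -0.39, so the share called is near this background. All 3 calls were lost without disome-seq 3-AT replicate 1 (adjusted p = 0.11, 0.051 and 0.059), where MET17 was at -1.51, against -3.51 without replicate 2, and that of SAM2, which rests on 1 disome footprint, also with DESeq2 (0.13), with the replicate number as a block (0.084) and without disome-seq 3-AT replicate 2 (0.17). When the counts of SAM1 and SAM2 were summed, the log2 ratio was 1.07 (adjusted p = 0.0074). The remaining ratios were -1.02 ± 0.62 for CYS3 (0.22), -1.01 ± 0.52 for MET5 (0.14), -0.25 ± 0.30 for MET6 (0.57), -0.01 ± 0.51 for MET10 (1) and 0.23 ± 0.66 for MET16 (0.82). Of 21 other pathway genes tested, MET7 (1.72) and MUP3 (2.00) were above and SAH1 (-1.34) below.

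The change of the disome to monosome ratio between the media was called for 3 of 8 members, all lower in 3-AT, against 17.6% of 2871 genes, 14.8% lower and 2.72% higher. The scaling moves this background, as the share of called genes that were higher was 15.5% with TMM, 29.8% with DESeq2 size factors and 51.2% with library totals, and the median over all genes was -0.77 with TMM and 0.04 with library totals. MET17 fell by 2.80 ± 0.52 on the log2 scale (adjusted p = 2.9e-06), or by 2.03 relative to the median gene, and this call held in every alternative that was run. Its value was -1.97 with library totals or all 12 libraries, -2.08 without monosome-seq rich replicate 2, -2.21 without disome-seq 3-AT replicate 1 and -4.25 without disome-seq 3-AT replicate 2. CYS3 fell by 2.21 ± 0.60 (adjusted p = 0.003), or by 1.44 relative to the median, but was lost with library totals (0.13), DESeq2 (0.059) and all 12 libraries (0.17), and without monosome-seq rich replicate 2 (0.098), monosome-seq 3-AT replicate 2 (0.066) or disome-seq 3-AT replicate 1 (0.11), and was at -3.91 without disome-seq 3-AT replicate 2. SAM2 fell by 3.46 ± 1.13 (adjusted p = 0.018), a call lost with DESeq2 size factors (0.07), library totals (0.14), DESeq2 (0.18) and all 12 libraries (0.18), and without monosome-seq rich replicate 2 (0.10), monosome-seq 3-AT replicate 2 (0.10) or disome-seq 3-AT replicate 2 (0.16). SAM1 was at 0.70 ± 0.36 (0.19) and passed with DESeq2 size factors (1.15, 0.014), library totals (1.53, 4.4e-04), DESeq2 (1.15, 0.025) and all 12 libraries (1.53, 9.6e-05), and without monosome-seq rich replicate 2 (0.024) or monosome-seq 3-AT replicate 2 (0.011). The values of MET6 (-0.35 ± 0.39), MET10 (-1.07 ± 0.88) and MET5 (-1.72 ± 0.82) had adjusted p from 0.14 to 0.59. MET16 had no rich-medium disome footprint, so no fold is given for it. Of 22 other pathway genes tested, CBF1 (-2.47) and SAH1 (-1.65) were lower and none was higher.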

How the data were processed

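The tables hold, as deposited by the authors, whole-number counts of reads per gene and replicate, not normalized. The control table instead gives a count at each A-site position. Per the methods and the submitters' processing notes, reads were trimmed with cutadapt 1.16, freed of rRNA with Bowtie 1.2.2, and aligned to the coding sequences of R64-1-1 with TopHat2 2.1.1, and multiple alignments were discarded. Only reads of 55 to 65 nt (disome-seq), 20 to 30 nt (monosome-seq) or 28 to 29 nt (mRNA-seq and control) were counted, so totals are not whole libraries. The methods state that reads of equal length, sequence and UMI entered once, without saying whether the deposited tables were made so. Genes that a table does not list were set to 0 there.

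The tests used the quasi-likelihood F test of edgeR 4.0.16 (R 4.3.3, TMM factors, its default low-count filter, Benjamini-Hochberg adjustment over all genes tested, threshold 0.05), fitting the 4 libraries of a comparison or, for a change of a ratio, its 8 libraries. Standard errors come from the test statistic. Each fit gives all its libraries 1 spread per gene, also where it joins different assays. Where the spread differs between assays, the standard errors and calls of such fits may be off. No permutation of 2 against 2 can reach 0.05, and none was run. Comparisons that share libraries are not independent. The members, the list of 29 pathway genes and the motifs were chosen with earlier results of these data known, and pathway genes are named when they pass in mRNA-seq and, elsewhere, as up to 4 with the smallest adjusted p. Alternatives were DESeq2 1.42.0 (test or size factors), library totals, no filter, all 12 libraries in 1 fit, a replicate block, each library left out, SAM1 and SAM2 summed, and, added after seeing the data, robust spread and the 500 nt window. On simulated data edgeR recovered 91% of 2-fold and 99% of 4-fold changes in mRNA-seq between media, 62% and 91% in monosome-seq, 23% and 73% in disome-seq, and 3% and 18% for the change of the disome to monosome ratio, where 12.5% of calls were false. The last share is of 24 calls. That simulation gives all libraries of a fit 1 spread per gene. It changes 100 genes by 2-fold and 100 by 4-fold and leaves all others unchanged, whereas 3988 of 5290 genes were called in mRNA-seq between media. Its rates may therefore not hold for these data. Sequences and motifs were read from the RefSeq R64 genome with Python 3.11.15, pandas 2.3.3 and biopython, and 5689 of the 5694 genes were paired with it by systematic name. Confidence intervals are 95% Wilson intervals, and 3 counts are what a count of 0 allows.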

Additional observations from a re-analysis of the deposited data

Results flagged for a closer look

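These values were singled out because the test of the difference between the media itself passed in the fit used here. For the ratio of monosome footprints to mRNA reads the changes on the log2 scale were -0.92 for CYS3, -0.82 for MET6, -0.67 for MET17, -1.08 for MET14 and 0.55 for MET5. The calls of MET14 and MET5 were lost in several alternatives. For the ratio of disome to monosome footprints the changes were -2.80 for MET17, -2.21 for CYS3 and -3.46 for SAM2, where the median over all genes was -0.77. The calls of CYS3 and SAM2 in this ratio were also lost in several alternatives, and SAM2 had 1 and 0 disome footprints in 3-AT. CYS3 and MET17 appear in both sets, which share the monosome libraries. With 2 libraries in each group, no library could be tested as standing apart from its group.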

How the results depend on the processing

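Over all alternatives, the numbers of the 10 genes called in mRNA-seq and monosome-seq between media stayed within 1.5 times those of the report, apart from the leave-out ranges given here. With the replicate block the numbers called were 10, 9 and 2 for mRNA-seq, monosome-seq and disome-seq between media, 8 and 7 for monosome-seq against mRNA-seq in the rich medium and 3-AT, 5 for the change of that ratio, 1 and 2 for disome-seq against monosome-seq, and 3 for the change of that ratio. The deviations of same-numbered libraries correlated from -0.17 to 0.082 between groups. Counting error could hide a shared culture or lysate in such a correlation, so it does not settle whether same-numbered libraries are paired. Over all genes, disome-seq against monosome-seq had 570 calls without the block and 403 with it in the rich medium. In 3-AT these were 718 and 520. Leaving out 1 library gave 9 to 10, 6 to 10 and 2 to 4 genes between media, 5 to 8 and 6 to 8 for monosome-seq against mRNA-seq, 4 to 6 for the change of that ratio, 0 to 1 and 0 to 2 for disome-seq against monosome-seq, and 2 to 3 for the change of that ratio. DESeq2 called 1 gene in disome-seq between media, 5 in either medium for monosome-seq against mRNA-seq, and 3 for the change of that ratio. Without a filter 4 genes were called in disome-seq between media and 0 for the rich-medium ratio of disome-seq to monosome-seq, and with all 12 libraries 4 and 2. The wider window moved the genes with CACGTG from 4 to 9 and with CTGTGG from 1 to 6. Robust spread changed none of these numbers.

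Some log2 values changed sign. Between media in monosome-seq, MET6 was -0.16 and MET17 -0.05 with all 12 libraries, and MET14 ran from -1.42 to 0.04 when a library was left out. In mRNA-seq SAM4 was 0.01 with library totals. For monosome-seq against mRNA-seq with library totals, MET5 was -0.11 in the rich medium, and CYS3 -0.21 and MET17 -0.20 in 3-AT. MET14, not called, was 0.01 without mRNA-seq rich replicate 1 and 0.02 without monosome-seq rich replicate 1. The change of that ratio for SAM1, not called, ran from -0.14 with all 12 libraries to -0.02 without replicate 2 of mRNA-seq rich or monosome-seq rich and -0.01 without monosome-seq 3-AT replicate 1, and reached 0.23 without monosome-seq 3-AT replicate 2. For the rich-medium ratio of disome-seq to monosome-seq, with all 12 libraries MET5 was -0.31, MET17 -0.34 and SAM1 -0.23. MET17 was -0.01 with library totals and -0.08 without disome-seq rich replicate 2, where MET10, then at 0 disome footprints, was fitted at -7.77, which is no bound. Without disome-seq rich replicate 1 MET5 was -0.28, MET17 0.36 and MET10 1.67, and without replicate 2 MET5 was 0.46. In 3-AT MET10 was 0.14 with library totals, and with disome-seq replicate 1 or 2 left out MET6 was 0.13 or -0.96, MET10 -1.76 or 0.68 and MET16 0.37 or -0.06. SAM1 and SAM2 summed gave 0.24 in the rich medium, 1.07 in 3-AT and 0.41 for the change, against the values of SAM2 alone. The change of the disome to monosome ratio of MET6, not called, was 0.11 with DESeq2 or its size factors, 0.49 with library totals, 0.48 with all 12 libraries, 0.25 and 0.22 without monosome-seq replicate 2 of the rich medium and 3-AT, and 0.01 or -1.12 without disome-seq 3-AT replicate 1 or 2. MET10 was -2.84 without disome-seq 3-AT replicate 1 and was fitted at 6.53 without disome-seq rich replicate 2. Apart from the changes that these settings make by construction, the cause was not tested.

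Without the 10 most counted genes in the total, the share of the 10 genes was 0.311% and 0.478% in mRNA-seq, 0.488% and 0.511% in monosome-seq and 0.552% and 0.535% in disome-seq, for the rich medium and 3-AT. In disome-seq the order of the means thus turned, but the replicates of the media overlapped, as they did with all genes in the total. They were 0.4987% and 0.6057% in the rich medium and 0.4915% and 0.5779% in 3-AT. In the library labelled as control the share was 0.254% without the first 50 codons and 0.429% with each position counted once. Depth limits the disome results most: a count of 0 allows 63.3 to 160 RPM in a single disome library.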

Other observations

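Histidine codons were counted in the coding sequences, since 3-AT inhibits histidine synthesis. MET16 (3.83% of codons), MET17 (3.60%) and CYS3 (3.55%) had the highest shares of the 10 genes, above the median of 2.05% over all genes, and MET10 (1.45%), MET6 (1.56%) and SAM2 (1.56%) the lowest. A relation of these shares to the disome counts was not tested.

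Footprints in the library labelled as control were spread unevenly along MET6, with 0 of 331 in the first 50 codons, which make up 6.5% of the gene. In CYS3 41 of 369 (11.1%) and in SAM1 11 of 137 (8.0%) fell in the first 50 codons, which are 12.7% and 13.1% of those genes.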
